A study of Rattus norvegicus with 16 samples.

Results

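The Ras-MAPK feedback inhibitors described here are 10 genes: the Sprouty genes Spry1, Spry2 and Spry4, the Spred genes Spred1 and Spred2, the dual-specificity phosphatase genes Dusp4, Dusp5 and Dusp6, the Ras GTPase-activating gene Rasa1, and Phlda1. They were named for their roles, a choice made with earlier results of these data known although no measured value enters the rule, and are 10 of the 20571 genes tested. All 10 passed the filter on dim probes. They were measured by 11 of the 30367 probes of the array, 2 for Spry4 and 1 for each other gene.

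Expression was measured with 16 single-colour Agilent rat arrays in cells cultured from the olfactory mucosa of male Fischer rats, the nasal lining that holds the olfactory epithelium. A cell sorter separated 4 populations, each with 4 biological replicates. TRKA-TGF cells had been cultured in medium conditioned with transforming growth factor alpha (TGF-alpha), while TRKA, CD90 and p75 cells shared a culture protocol. CD90 is a cell surface glycoprotein (gene Thy1), and p75 a neurotrophin receptor (gene Ngfr). Neither the dose and duration of TGF-alpha nor the animals and cultures behind replicates of equal number were stated in the labels.

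TGF-alpha binds the epidermal growth factor (EGF) receptor, and the active receptor loads the small GTPase Ras with GTP. Ras then activates the kinases of the MAPK cascade, of which ERK is the last, and ERK in turn raises transcription of genes whose products damp the cascade. Sprouty and Spred proteins act between the receptor and the cascade, dual-specificity phosphatases remove the activating phosphates from ERK and related kinases, and Rasa1 speeds the hydrolysis of GTP by Ras. Sprouty genes and Dusp6 are widely used as transcript readouts of ERK activity. Rasa1 is a constitutive brake rather than a classical target of ERK.

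The probes of 3 members on which the results turn are shown here, so that the measured stretch of each transcript can be seen. They are 60 bases long, in lower case, 5′ to 3′, as the array files give them.
Rasa1: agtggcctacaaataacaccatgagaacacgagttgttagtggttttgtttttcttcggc
Spry2: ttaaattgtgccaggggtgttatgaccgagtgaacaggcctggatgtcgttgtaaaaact
Phlda1: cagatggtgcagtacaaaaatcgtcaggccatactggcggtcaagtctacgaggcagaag
The Rasa1 probe lay at chr2:14209523-14211342 of rn4 on the minus strand, a span of 1820 bases for 60 bases of probe, so the match is split in the genome. The Spry2 probe lay at chr15:90009823-90009882 on the minus strand and the Phlda1 probe at chr7:50541837-50541896 on the plus strand.

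Levels are log2 processed signals minus the 75th percentile of their own array, so a level of 0 is that percentile. Levels were compared between groups within a probe only, since probes differ in their response. Fewer spots were measurable in TRKA cells than elsewhere: 68.4 ± 2.08% of spots were well above background in TRKA-TGF and 54.5 ± 2.60% in TRKA (SD, n = 4 each), and 71.3 ± 0.801% in CD90 and 70.02 ± 1.31% in p75. Replicate spread was widest in TRKA, with a median SD over genes of 0.54 in TRKA-TGF, 1.08 in TRKA, 0.68 in CD90 and 0.65 in p75. The p75 and TRKA arrays lay on one slide and the TRKA-TGF and CD90 arrays on the other. The TRKA-TGF and p75 arrays filled one row of their slides and the TRKA and CD90 arrays the other. Slide and group therefore cannot be told apart in TRKA-TGF versus TRKA, TRKA-TGF versus p75, TRKA versus CD90 or CD90 versus p75, and array row and group cannot be told apart in TRKA-TGF versus TRKA, CD90 versus p75, TRKA versus p75 or TRKA-TGF versus CD90.

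The cell type markers bore on what the groups held. Level in a marker list is log2 of the mean linear level over the list, given as the range over 4 arrays. The glial list holds Ngfr, the gene of p75, and the fibroblast list Thy1, the gene of CD90. The levels of these lists in p75 and CD90 cells are thus not independent of the sort. The 9 macrophage markers stood at 4.38 to 4.48 in TRKA-TGF, 5.30 to 5.69 in TRKA, 0.78 to 1.37 in CD90 and -1.41 to -0.38 in p75, and in TRKA-TGF 8 of them were well above background on every array and Cd163 on none. The 9 glial markers stood at -1.81 to -1.58 in TRKA-TGF, -4.97 to -3.10 in TRKA, -3.20 to -2.35 in CD90 and 3.82 to 3.89 in p75, with Ngfr, S100b and Scn7a on no TRKA array. Scn7a was on no TRKA-TGF or CD90 array either, and Erbb3 on no CD90 array. The 9 fibroblast markers stood at -1.05 to 0.72 in TRKA-TGF, 3.56 to 4.08 in TRKA, 5.76 to 5.94 in CD90 and 4.45 to 4.58 in p75. Such a level is carried by the brightest markers, and the fibroblast markers did not move as one. In TRKA-TGF versus TRKA 1 was called higher and 2 lower (limma), with a median difference of -0.48, and in TRKA, where Dcn and Lum were on no array, 3 of the 9 were well above background on all arrays. In TRKA versus p75 4 were lower and 0 higher, with a median of -3.79. In TRKA-TGF versus TRKA 2 macrophage markers were lower and 0 higher (median -1.04), and 3 glial markers were higher and 0 lower (median 2.31). In such bulk samples, fewer cells of a type and less RNA per cell cannot be told apart, and the part of cell type in the results below was not tested.

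Conditioning with TGF-alpha was read from TRKA-TGF versus TRKA. Rasa1, Spry1 and Spry2 were higher in TRKA-TGF cells and Dusp6 was lower. The other 6 members were not called. A gene was called at a Benjamini-Hochberg adjusted p under 0.05 over all genes (limma), and by that rule 26.4% of all 20571 genes were called, 13.5% higher and 12.9% lower, so 4 of 10 members lie near the share over all genes. The median difference of the 10 members was 1.60 with the reported processing, beside 0.19 over all genes tested. It includes Spry1, Spred2 and Phlda1, which were well above background on 0, 0 and 1 of the 4 TRKA arrays. Over the alternatives their differences fell as low as 0.77, 0.49 and 2.85, so the median is not a measured size. Ranges did not overlap for Rasa1 and Spry1 (higher) and Dusp6 (lower), while 26.4% of all genes had ranges apart.

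**Figure D1:**
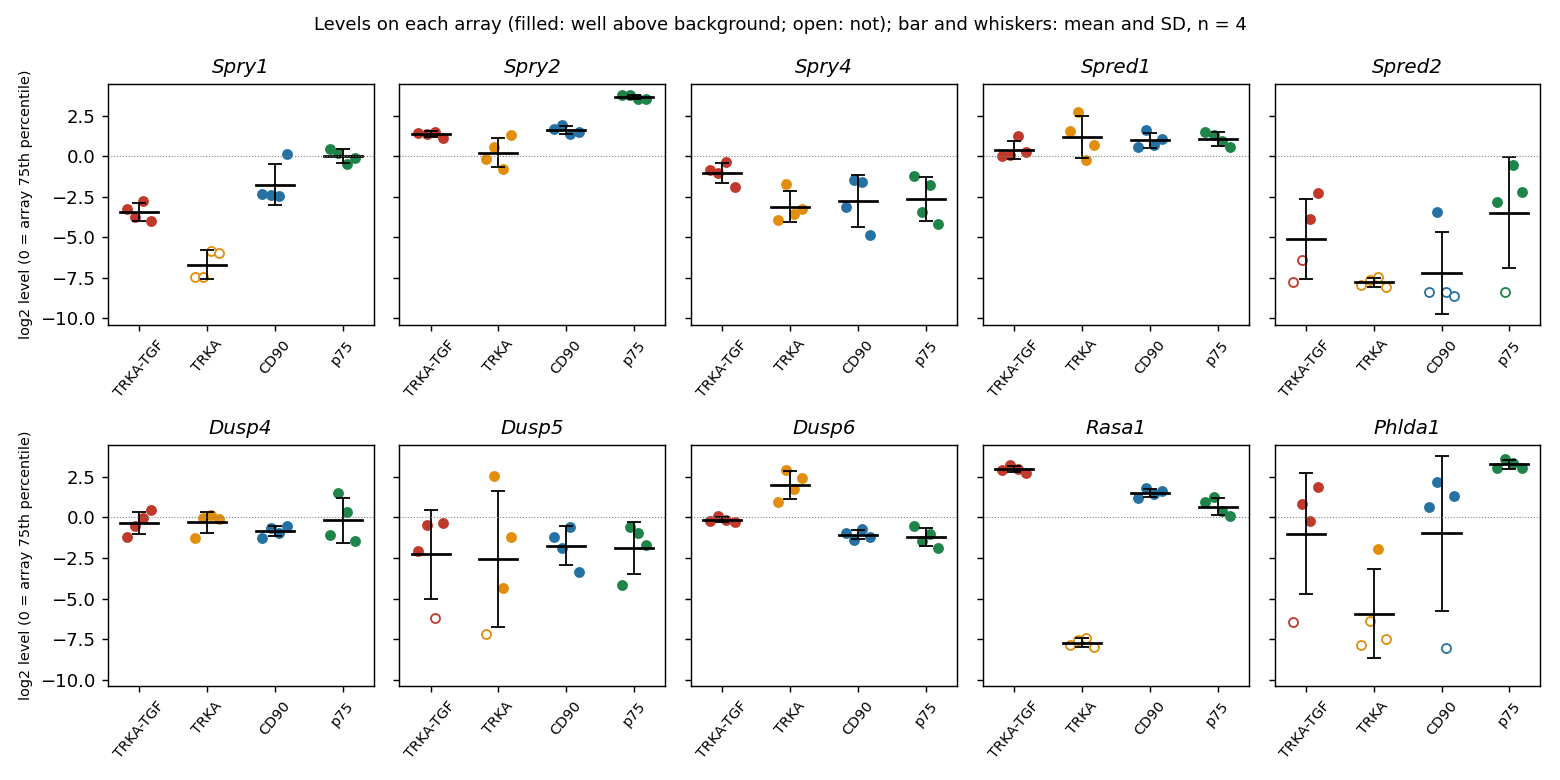
Level of each member on each array (vertical axis, log2 units above the array's 75th percentile) for TRKA-TGF, TRKA, CD90 and p75 cells. Points are arrays, filled where the probe was well above background and open where it was not, and bars with whiskers are means and SDs (n = 4). Rasa1 stands at about the same depth as the undetected probes in TRKA and above 0 on all 12 other arrays, and Dusp6 is highest in TRKA.

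Among the members that act on Ras itself, Rasa1 separated TRKA cells from all others. Its levels were 2.91, 3.23, 3.01 and 2.75 on the TRKA-TGF arrays, against -7.85, -7.53, -7.44 and -8.00 on the TRKA arrays. They were 1.23, 1.82, 1.47 and 1.63 in CD90 cells, and 0.97, 1.28, 0.39 and 0.07 in p75 cells. All TRKA-TGF arrays lay above all other arrays, and the probe was well above background on none of the 4 TRKA arrays and on all 12 others.

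The processed signal of the Rasa1 probe was 7343 to 8894 in TRKA-TGF cells and 3.21 to 3.98 in TRKA cells. With the reported processing, Rasa1 was therefore at least 346-fold higher in TRKA-TGF than in TRKA (fitted difference 10.68, SE 0.28, adjusted p = 7.98e-11, limma). Such a bound sets the bright group's mean against the lowest signal that counted as well above background on each dim array, or the probe's own signal where that was higher. All bounds hold for that processing only. For Rasa1 and Spry1, the fitted differences with the normexp correction, given here and below, were smaller than the bounds. Rasa1 was called in all 20 alternatives run for this comparison, with differences of 6.65 to 11.44, the lowest with the normexp background correction.

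Rasa1 was also higher in TRKA-TGF than in CD90 cells (1.44, SE 0.28, adjusted p = 0.00283), a comparison within 1 slide, and than in p75 cells (2.30, SE 0.28, adjusted p = 5.48e-05). It was at least 128-fold lower in TRKA than in CD90 cells (adjusted p = 6.15e-11) and at least 70.5-fold lower in TRKA than in p75 cells on the same slide (adjusted p = 1.36e-10), and both were called in all 20 alternatives, with fitted differences of -5.24 and -4.39 with the normexp correction. The order of levels was TRKA-TGF, CD90, p75, TRKA. Of the neighbours in that order, CD90 and p75 did not pass the test (0.86, SE 0.28, adjusted p = 0.0929, limma). Without p75 replicate 2 this difference was 1.06 with an adjusted p of 0.0434, and over the 20 alternatives the adjusted p was 0.0356 to 0.245. With all arrays it was called with normexp (adjusted p = 0.0390, limma), quantile normalization (0.0432) and the authors' values (0.0356). It was also called with the percentile taken over probes detected on all arrays (0.0457), which makes 5 of the 20 in all.

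Absence from all TRKA arrays was not particular to Rasa1. On all arrays of TRKA-TGF, CD90 and p75 and on no TRKA array, 269 of 20571 genes (1.31%) were well above background, and Rasa1 and Spry1 were the 2 members among them. On all TRKA-TGF arrays and no TRKA array, 658 genes (3.20%) were well above background, the same 2 members among them. The other way round, on all TRKA arrays and no TRKA-TGF array, there were 29 genes (0.14%) and 0 members. On no TRKA array at all, 2192 genes (10.66%) were well above background, 3 of them members, the third being Spred2. By contrast, 9678 genes (47.0%) and 5 members were well above background on all 16 arrays.

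Spry1 encodes a Sprouty protein that is induced by growth factors and restrains receptor tyrosine kinase signalling to Ras. Its levels were -3.23, -3.78, -2.78 and -4.01 in TRKA-TGF cells, against -7.42, -7.48, -5.86 and -5.98 in TRKA cells. They were -2.35, -2.38, -2.47 and 0.14 in CD90 cells, and 0.46, 0.20, -0.51 and -0.13 in p75 cells. Every TRKA-TGF array lay above every TRKA array and below every CD90 and p75 array.

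Spry1 was at least 4.03-fold higher in TRKA-TGF than in TRKA, where it was well above background on 0 of 4 arrays (fitted difference 3.24, SE 0.59, adjusted p = 0.00107, limma). The call was lost with the normexp correction (0.77, adjusted p = 0.211) and with quantile normalization (1.90, adjusted p = 0.0739), and it held in the other 18 of 20 alternatives. Over all 20 the adjusted p was 0.000297 to 0.211. Relative to the median of all genes under each scaling, its difference was 0.93 to 3.04.

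Against the other populations Spry1 was lower. It was lower in TRKA-TGF than in p75 cells (-3.45, SE 0.59, adjusted p = 0.000873), at least 44.2-fold lower in TRKA than in p75 cells (adjusted p = 1.21e-06) and at least 12.96-fold lower in TRKA than in CD90 cells (adjusted p = 2.07e-05). With the normexp correction the fitted differences from TRKA were smaller, -3.57 against p75 and -2.03 against CD90, and still called. TRKA-TGF versus CD90 gave -1.68 (SE 0.59, adjusted p = 0.0746, limma), not called although the ranges were apart. CD90 versus p75 gave -1.77 (SE 0.59, adjusted p = 0.0970). Without CD90 replicate 4, whose level of 0.14 was that of p75 cells, CD90 versus p75 gave -2.40 with an adjusted p of 0.00586, and the adjusted p was 0.00586 to 0.231 over the alternatives. With all arrays, CD90 versus p75 was also called with normexp (adjusted p = 0.0341, limma) and with array weights (0.0404). The order of levels was p75, CD90, TRKA-TGF, TRKA, and only TRKA-TGF and TRKA among its neighbours passed the test with the reported processing.

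Spry2, a close relative of Spry1, was well above background on all 16 arrays. Its levels were 1.43, 1.38, 1.49 and 1.10 in TRKA-TGF cells, against -0.19, 0.57, -0.80 and 1.30 in TRKA cells. They were 1.65, 1.94, 1.38 and 1.498 in CD90 cells, and 3.78, 3.75, 3.54 and 3.50 in p75 cells. The p75 arrays lay above all 12 others, and the highest TRKA array overlapped the TRKA-TGF range.

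The rise of Spry2 in TRKA-TGF over TRKA was 1.13 (SE 0.36, adjusted p = 0.0346, limma), a 2.19-fold difference near the threshold. It was not called in 8 of 20 alternatives, among them those without any 1 of the 4 TRKA-TGF replicates (adjusted p = 0.0507 to 0.0776) and those without TRKA replicate 1 (0.99, adjusted p = 0.0775) or TRKA replicate 3 (0.79, adjusted p = 0.0821). With only the 2 groups in the fit the SE was 0.47 and the adjusted p 0.145. With array weights the adjusted p was 0.0505. The SD of its levels was 0.17 in TRKA-TGF and 0.92 in TRKA. Over all 20 its adjusted p was 0.00192 to 0.145 and its difference 0.79 to 1.89. Spry2 was lower than in p75 cells in each other population, by -2.29 in TRKA-TGF (adjusted p = 0.000505), -3.42 in TRKA (adjusted p = 7.23e-06) and -2.02 in CD90 (adjusted p = 0.00265, SE 0.36 each). It was also lower in TRKA than in CD90 (-1.40, adjusted p = 0.00829), which was not called with only those 2 groups in the fit (adjusted p = 0.0780, the highest over the alternatives, the lowest being 0.000207). In the order p75, CD90, TRKA-TGF, TRKA, the neighbours CD90 and TRKA-TGF did not pass the test (TRKA-TGF versus CD90 -0.27, adjusted p = 0.730).

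Spry4, the third Sprouty gene of the set, had 2 probes that disagreed. On the brighter probe, well above background on all 16 arrays, levels ran from -1.89 to -0.39 in TRKA-TGF, -3.92 to -1.71 in TRKA, -4.85 to -1.47 in CD90 and -4.16 to -1.24 in p75. All groups overlapped, and no comparison was called. TRKA-TGF versus TRKA gave 2.07 (SE 0.81, adjusted p = 0.0771), which passed without TRKA replicate 2 (2.54, adjusted p = 0.0420) and in 3 of 20 alternatives in all (adjusted p = 0.0162 to 0.403). The dimmer probe was well above background on no TRKA-TGF or TRKA array, 1 CD90 array and all 4 p75 arrays. In a fit over probes it was at least 1.92-fold lower in TRKA-TGF than in p75 (adjusted p = 0.000148) and at least 1.55-fold lower in TRKA than in p75 (adjusted p = 0.000207). The brighter probe gave 1.62 (adjusted p = 0.241) and -0.45 (adjusted p = 0.700) for those comparisons. With the 2 probes averaged, TRKA versus p75 was called (-1.55, adjusted p = 0.0386). The dimmer probe gives no usable size in TRKA-TGF versus TRKA, where it was not well above background on any of the 8 arrays. The same holds against CD90, where it was not well above background on 3 of 4.

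The Spred genes encode Sprouty-related proteins that bind Ras pathway kinases and recruit the GTPase activator neurofibromin. Spred1 was well above background on all 16 arrays, at 0.02 to 1.22 in TRKA-TGF, -0.26 to 2.75 in TRKA, 0.56 to 1.61 in CD90 and 0.54 to 1.52 in p75. The groups overlapped throughout, and TRKA-TGF versus TRKA gave -0.79 (SE 0.54, adjusted p = 0.307). Spred2 was well above background on 2 TRKA-TGF, 0 TRKA, 1 CD90 and 3 p75 arrays, with levels of -7.79 to -2.28, -8.05 to -7.48, -8.62 to -3.44 and -8.39 to -0.55 in that order.

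No Spred2 comparison was called with the reported processing. TRKA-TGF versus TRKA gave 2.68 (SE 1.64, adjusted p = 0.256), and TRKA versus p75 gave -4.29 (SE 1.64, adjusted p = 0.0563). Without p75 replicate 2, whose Spred2 level was -8.39 against -2.81 to -0.55 on the other p75 arrays, TRKA versus p75 gave -5.92 (adjusted p = 0.00546, over the alternatives 0.00546 to 0.257). CD90 versus p75 then gave -5.35 (adjusted p = 0.0386, over the alternatives 0.0386 to 0.501), against -3.72 (adjusted p = 0.246) with all arrays. Spred2 in TRKA versus p75 was also called with all arrays under quantile normalization (adjusted p = 0.0263, limma) and in the authors' values (0.0266). The same held with the percentile taken over probes detected on all arrays (0.0253).

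Among the phosphatases, Dusp6 was the member called in TRKA-TGF versus TRKA, in the opposite direction to Spry1 and Spry2. It encodes a cytoplasmic phosphatase with strong preference for ERK. Its levels were -0.20, 0.06, -0.18 and -0.30 in TRKA-TGF cells, against 0.96, 2.90, 1.74 and 2.44 in TRKA cells. They were -0.93, -1.38, -0.71 and -1.20 in CD90 cells, and -0.55, -1.44, -1.03 and -1.87 in p75 cells. The TRKA arrays lay above all 12 others, and the TRKA-TGF arrays lay above all CD90 and p75 arrays.

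Dusp6 fell to -0.15 ± 0.15 in TRKA-TGF, against 2.01 ± 0.85 in TRKA (SD, n = 4 each), a difference of -2.16 (SE 0.39, adjusted p = 0.00108, limma). It was called in all 20 alternatives, with differences of -2.51 to -1.40 and adjusted p of 0.000204 to 0.0142, and stood -2.35 to -1.499 from the median of all genes over the scalings. Dusp6 was higher in TRKA than in p75 cells on the same slide (3.23, SE 0.39, adjusted p = 2.42e-05) and than in CD90 cells (3.06, SE 0.39, adjusted p = 3.81e-05). TRKA-TGF versus p75 (1.07, adjusted p = 0.0902) and TRKA-TGF versus CD90 (0.90, adjusted p = 0.165) were not called although both ranges were apart, and CD90 versus p75 gave 0.17 (adjusted p = 0.909). TRKA-TGF was called higher than p75 in 4 of 20 alternatives (adjusted p = 0.00976 to 0.233, limma). It was called higher than CD90 in 3 of 20 (adjusted p = 0.0250 to 0.311), among them the fit with only the 2 groups. The order of levels was TRKA, TRKA-TGF, CD90, p75, and of its neighbours only TRKA and TRKA-TGF passed the test with the reported processing.

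Dusp4 and Dusp5 encode nuclear phosphatases of ERK and related kinases. Dusp4 was well above background on all 16 arrays, at -1.18 to 0.43 in TRKA-TGF, -1.28 to 0.18 in TRKA, -1.25 to -0.52 in CD90 and -1.47 to 1.53 in p75. Dusp5 ran from -6.20 to -0.36 in TRKA-TGF, -7.21 to 2.53 in TRKA, -3.38 to -0.59 in CD90 and -4.15 to -0.61 in p75, and was not well above background on 1 TRKA-TGF and 1 TRKA array. Neither gene separated any 2 groups. TRKA-TGF versus TRKA gave -0.03 for Dusp4 (SE 0.59, adjusted p = 0.976) and 0.29 for Dusp5 (SE 1.80, adjusted p = 0.926), and the wide SE of Dusp5 leaves differences of several log2 units within error.

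Phlda1 encodes a protein with a pleckstrin homology-like domain, induced by growth factors in many cells. Its levels were -6.43, 0.83, -0.23 and 1.86 in TRKA-TGF cells, against -7.88, -6.36, -1.95 and -7.51 in TRKA cells. They were 0.64, 2.20, -8.05 and 1.32 in CD90 cells, and 3.07, 3.62, 3.36 and 3.06 in p75 cells. The p75 arrays lay close together and above all 12 others. The probe was well above background on 3 arrays of TRKA-TGF, 3 of CD90 and 1 of TRKA.

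Phlda1 was lower in TRKA than in p75 cells (-9.20, SE 2.22, adjusted p = 0.00504, limma) and in all 19 alternatives that gave a value (adjusted p = 0.00129 to 0.0415). The size of that difference is uncertain, since the probe was not well above background on 3 of the 4 TRKA arrays, and the difference was -6.48 with the normexp correction. TRKA-TGF versus TRKA gave 4.93 (SE 2.22, adjusted p = 0.120). Without TRKA-TGF replicate 1, the array where Phlda1 was not well above background, it gave 6.75 with an adjusted p of 0.0358, and the adjusted p was 0.0358 to 0.277 over the alternatives. TRKA versus CD90 gave -4.95 (adjusted p = 0.1004). Without CD90 replicate 3 it gave -7.31 (adjusted p = 0.00651) and without TRKA replicate 3 -6.28 (adjusted p = 0.0492), within a range of 0.00651 to 0.301 over the alternatives. With all arrays it was called with the percentile taken over probes detected on all arrays (-5.93, adjusted p = 0.0473, limma). TRKA-TGF versus p75 (-4.27, adjusted p = 0.259) and CD90 versus p75 (-4.25, adjusted p = 0.355) were not called although their ranges were apart.

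**Figure D2:**
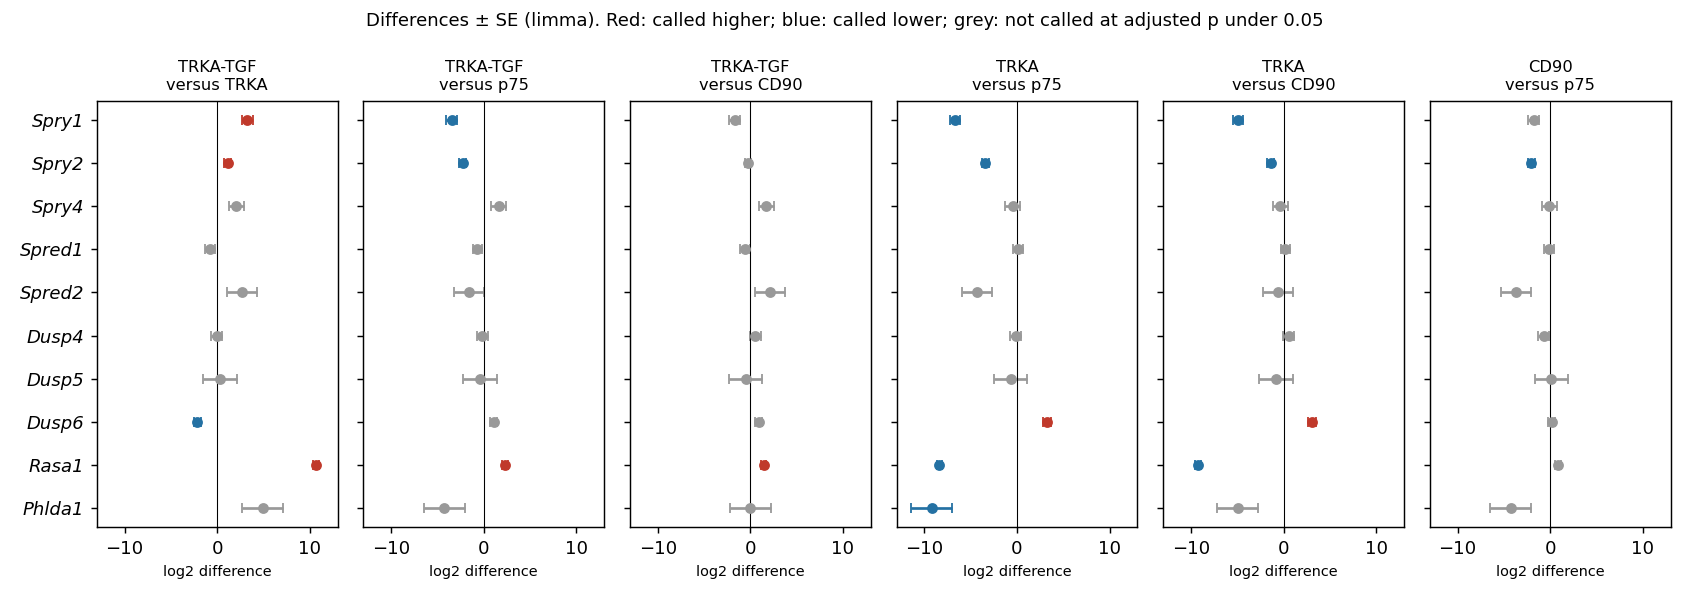
Difference between groups for each member (horizontal axis, log2, first group minus second; whiskers, SE) in the 6 comparisons. Red points were called higher, blue points called lower and grey points not called. Rasa1 was called in 5 of the 6 comparisons, and Dusp6 is positive where TRKA stands first and negative in TRKA-TGF versus TRKA.

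Counts over the 10 members in the other comparisons are read against the share of all genes called. In TRKA-TGF versus p75, 1 member was higher (Rasa1) and 2 were lower (Spry1 and Spry2), where 15.1% of all genes were called (7.97% higher and 7.15% lower) and the members' median was -0.54, beside 0.14 over all genes. In TRKA-TGF versus CD90, only Rasa1 was called, where 14.9% of all genes were called (7.72% higher and 7.19% lower), and the medians were 0.24 and 0.15. In TRKA versus p75, 1 member was higher (Dusp6) and 4 were lower (Spry1, Spry2, Rasa1 and Phlda1), where 35.7% of all genes were called (18.8% higher and 16.9% lower), and the medians were -2.05 and -0.01.

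The TRKA versus CD90 comparison gave 1 member higher (Dusp6) and 3 lower (Spry1, Spry2 and Rasa1), where 34.9% of all genes were called (18.3% higher and 16.6% lower), and medians of -0.69 and -0.09. In CD90 versus p75, Spry2 was the 1 member called, lower, where 7.25% of all genes were called (3.68% higher and 3.57% lower), and the medians were -0.39 and 0.05. These comparisons share groups, so their counts are not independent of each other. Ranges were apart for 5 members in TRKA-TGF versus p75 and for 5 in TRKA versus p75, where 28.8% and 31.5% of all genes had ranges apart. They were apart for 3 members in TRKA-TGF versus CD90 (28.6% of all genes), 4 in TRKA versus CD90 (30% of all genes) and 2 in CD90 versus p75 (19% of all genes).

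Scaling moved the whole distribution in comparisons with TRKA. In TRKA-TGF versus TRKA, 51.1% of called genes were higher, against 38.8% with the normexp correction, 39.2% with quantile normalization, 39.9% in the authors' values and 82.9% with the percentile taken over probes detected on all arrays, and the median of all genes moved from 0.19 by -0.36 to 0.76. In TRKA versus p75 that share was 52.7%, against 66.9% with normexp and 20.7% with the percentile over detected probes, and in TRKA versus CD90 it was 52.3%, against 62.7% and 18.7%. Relative to the median of all genes, Rasa1, Spry1 and Spry2 stayed higher and Dusp6 lower in TRKA-TGF versus TRKA under all of these scalings, with Spry2 at 0.94 to 1.499.

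**Figure D3:**
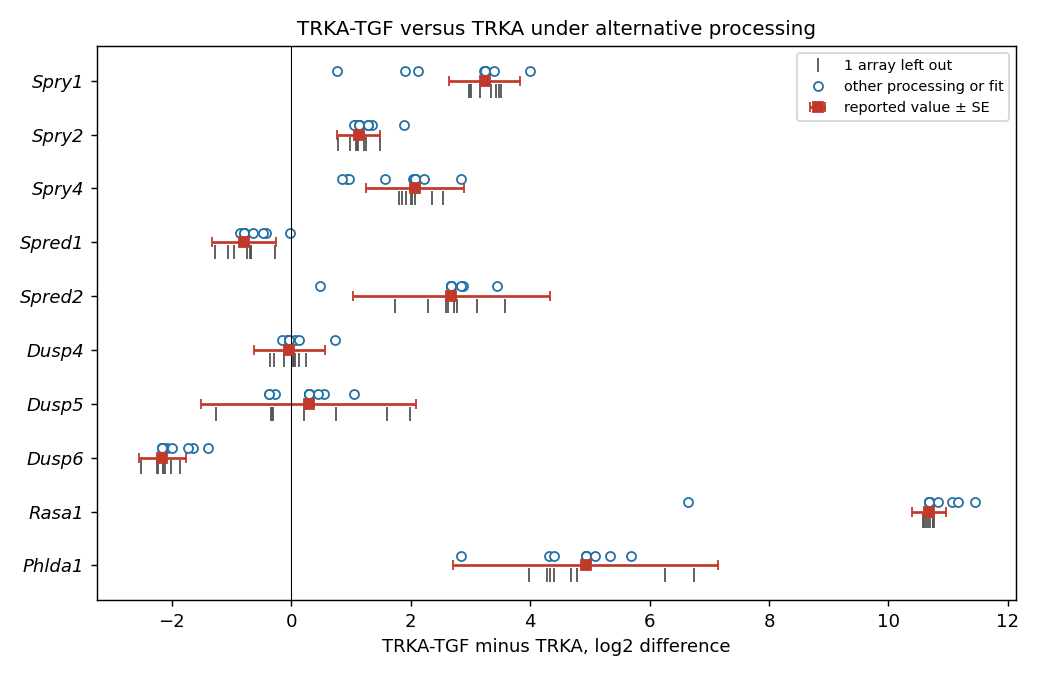
TRKA-TGF minus TRKA for each member (horizontal axis, log2 difference) under alternative processing. Red squares with whiskers are the reported values with SE, blue circles other processing or another fit, and black ticks fits with 1 array left out. Rasa1 and Dusp6 keep their side of 0 by more than 1 log2 unit throughout, Spry1 drops to 0.77 with the normexp correction, and Dusp4 and Dusp5 fall on both sides of 0.

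The rest of the pathway was described by lists of genes chosen for their role. Of the ligand and its receptors, Tgfa (-0.84, adjusted p = 0.347), the EGF receptor gene Egfr (0.26, adjusted p = 0.949), Erbb2 (0.09, adjusted p = 0.866) and Erbb3 (2.31, adjusted p = 0.207) were not called in TRKA-TGF versus TRKA, and Erbb4 did not pass the filter. Egfr was well above background on 2 TRKA-TGF arrays and 1 TRKA array, Erbb2 on all 4 of each, and Erbb3 on 3 and 1.

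The 18 tested genes of the Ras-ERK core gave 9 higher and 3 lower in TRKA-TGF versus TRKA, with a median difference of 1.41 beside 0.19 over all genes, of which 26.4% were called. The kinase gene Braf stood at -0.96 ± 0.23 in TRKA-TGF (SD, n = 4), was well above background on 0 TRKA arrays and was at least 22.6-fold higher in TRKA-TGF (adjusted p = 0.000798). Rps6ka3, a kinase activated by ERK, was higher by 4.03 (SE 0.53, adjusted p = 9.79e-05, limma). The 3 lower genes, looked up after their values were seen, were Map2k2 (-1.94, adjusted p = 0.000232), Mapk3 (-1.38, adjusted p = 0.00049) and the adaptor gene Grb2 (-1.10, adjusted p = 0.00169). The count of higher genes fell to 5 with no filter or with only the 2 groups in the fit, while Braf and Rps6ka3 were called in every alternative that gave a value. The fitted difference of Braf was 2.77 to 7.53 over the settings.

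The 9 other Sprouty, Spred and Ras GTPase activator genes gave 2 higher and 0 lower, and 2 higher and 2 lower at an unadjusted p under 0.05 (limma), which 37.7% of all genes passed, 20.2% higher and 17.5% lower. The neurofibromin gene Nf1 was higher by 4.24 (SE 1.18, adjusted p = 0.0166), which was not called with normexp, with only the 2 groups or without TRKA-TGF replicate 3 (adjusted p up to 0.0967 over the alternatives), and Spred3 was higher by 3.62 (SE 0.60, adjusted p = 0.000532). The list's median was 0.35, and -0.04 with quantile normalization and in the authors' values, each of which called 1 gene lower. Rasa2 (2.01, adjusted p = 0.202) and Rasa3 (-0.60, adjusted p = 0.0631), which encode relatives of Rasa1, were not called.

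Of the 10 other dual-specificity phosphatase genes, 0 were called at an adjusted p under 0.05 (limma), with a median of 0.72. At an unadjusted p under 0.05, which 37.7% of all genes passed, 1 was higher and 0 were lower. The median was 0.02 to 0.03 with normexp, with quantile normalization and in the authors' values, and 1.48 with the percentile over detected probes, and 1 gene was called higher in 6 alternatives, the authors' values among them. Of 8 genes of EGF receptor feedback 1 was higher and 1 lower, where 26.4% of all genes were called. The list's median was 0.63, but -0.03 with normexp and 0.04 with quantile normalization. Lrig1, a transmembrane inhibitor of EGF receptor family members, was higher by 2.63 (SE 0.54, adjusted p = 0.0027) except with quantile normalization, where its adjusted p was 0.0528. Socs5, a suppressor of cytokine signalling, was lower by -1.48 (SE 0.21, adjusted p = 0.000148), and the other 6 were not called.

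Of 12 genes listed as ERK target transcription factors, 0 were higher and 5 lower (2 and 5 at an unadjusted p under 0.05, limma), where 12.9% of all genes were called lower and 37.7% passed the unadjusted threshold. The list's median was -0.34, which turned to 0.42 when the percentile was taken over probes detected on all arrays. The immediate-early genes Ier2 (-5.64, SE 0.94, adjusted p = 0.000589) and Egr1 (-5.09, SE 0.20, adjusted p = 1.18e-09) were lower, as was Ier3 (-3.94, SE 0.20, adjusted p = 1.80e-08), which encodes a regulator of cell survival and no transcription factor. Fos (-2.83) and Myc (-2.80) were the other 2 lower genes. Egr1 stood at -0.91 ± 0.10 in TRKA-TGF and 4.18 ± 0.25 in TRKA (SD, n = 4 each), and Ier2, Egr1 and Ier3 were called lower in every alternative. Of 9 other ERK output genes 1 was called higher, where 13.5% of all genes were. It was the membrane protein gene Emp1 (1.65, SE 0.28, adjusted p = 0.000716), and 0 were lower. At an unadjusted p under 0.05 too, 1 was higher and 0 were lower (limma), and the list's median was 0.27. That median was -0.21 with normexp, -0.18 with no filter and 1.04 with the percentile over detected probes, and 1 gene was called lower with quantile normalization and in the authors' values.

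**Figure D4:**
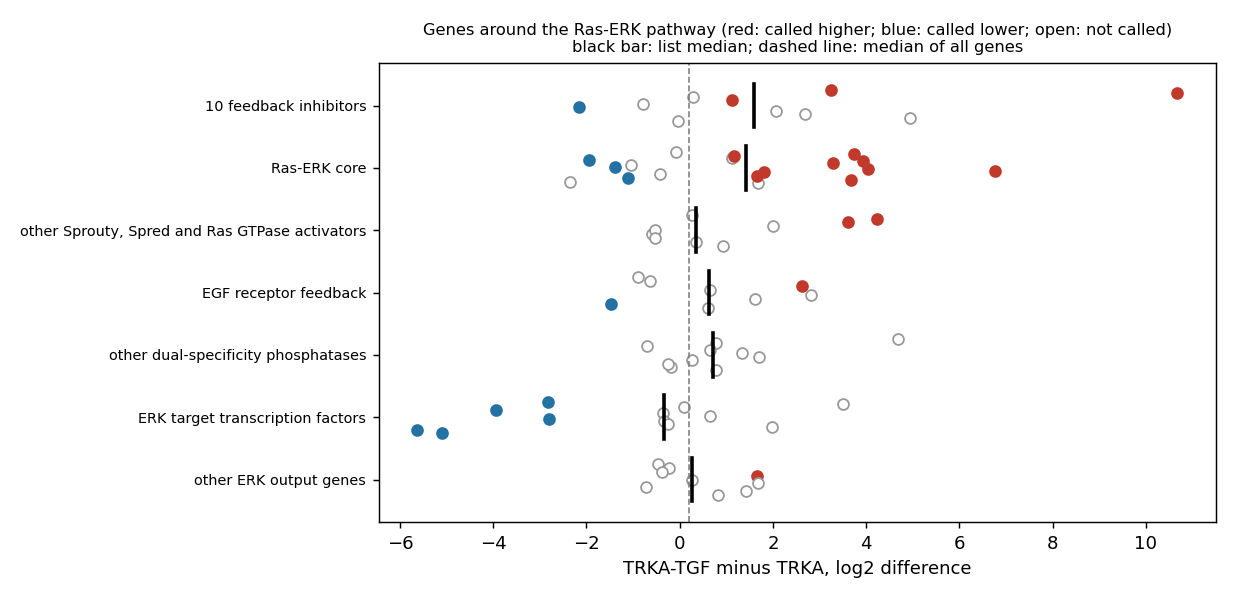
TRKA-TGF minus TRKA for genes around the Ras-ERK pathway (horizontal axis, log2 difference), 1 row per list. Red points were called higher, blue points called lower and open points not called; the black bar is the list's median and the dashed line the median of all genes (0.19). Dusp6 and the 5 called ERK targets lie on the left, and Rasa1 is the point farthest to the right.

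The genes whose levels ran most alike to a called member were found by the root mean square distance of centred levels over the 16 arrays, over genes with a symbol. For Rasa1 these were Azin1 (distance 0.86) and the activin receptor gene Acvr2a (0.93). Azin1 stood at 1.75 in TRKA-TGF, -7.59 in TRKA, 0.47 in CD90 and 1.26 in p75. For Spry1 they were Arl6 (0.79) and Map4k5 (0.96), for Spry2 Selenof (0.67) and Lbh (0.67), and for Dusp6 Hltf (0.48) and the ribosomal protein gene Rpl36 (0.50). Hltf, the nearest to Dusp6, stood at -1.02 in TRKA-TGF, 0.94 in TRKA, -2.39 in CD90 and -1.89 in p75.

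Promoter windows from RefSeq (GRCr8; 300 bases each, most of them before the start of a gene) were held for 9 of the 10 members, with 2 windows for Spry2. On both strands they were searched for AP-1 (TGANTCA), ETS (CCGGAAG), the core letters of the cyclic AMP response element, or CRE (TGACGT), the TATA box (TATAAA) and the CArG box, the binding motif of serum response factor. Matches were found in the windows of Dusp5 and Spred2. The Dusp5 window is shown as the one with several matches, 5′ to 3′ on the plus strand at chr1:262543524-262543823, with the matched letters in capitals.
Dusp5: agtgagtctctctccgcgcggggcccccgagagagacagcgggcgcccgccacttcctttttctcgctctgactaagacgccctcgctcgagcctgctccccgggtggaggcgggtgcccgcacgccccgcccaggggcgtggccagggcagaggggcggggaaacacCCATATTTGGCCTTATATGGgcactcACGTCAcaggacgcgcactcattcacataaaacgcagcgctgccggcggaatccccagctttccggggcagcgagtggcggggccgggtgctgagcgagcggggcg
The first run of capitals holds 2 adjoining CArG boxes, at -82 and -72 from the start, and the second the CRE letters on the minus strand at -56. A CArG box was present in 1.64% of all 33465 windows and the CRE letters in 7.94%. The Spred2 window held the CRE letters at -52. AP-1, ETS and TATA matches were in 0 of the 10 member windows, beside 7.33%, 8.75% and 14.2% of all windows. The windows of Rasa1, Spry1, Spry2 and Dusp6, the members called in TRKA-TGF versus TRKA, held none of these letters.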

How the data were processed

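Per the file headers, the deposited files are scanner output with linear intensities per spot, made with Agilent Feature Extraction 10.7.3.1 (10.5 in the submitters' processing notes). RNA was amplified by a global PCR protocol before labelling with Cy3, per the labels' protocols, which can widen differences of scarce transcripts. The processed signal is background-subtracted, per the file headers. A deposited log2 table, in which the authors' values ran with quantile-normalized signals centred per probe, was used as an alternative only.

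Non-uniform and population-outlier spots were dropped, spots of a probe were averaged, and log2 values were set relative to the array's 75th percentile over non-control probes. Probes well above background on at least 4 of 16 arrays were kept, and a gene was represented by its brightest kept probe. Group differences were fitted in R 4.3.3 with limma 3.58.1, with 1 mean per group over all 16 arrays, empirical Bayes moderation and Benjamini-Hochberg adjustment over 20571 genes. Precision is limited by 4 arrays per group. The fit was tested on simulated data.

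The members and gene lists were chosen with earlier results of these data known. All 10 members are named. From each other list up to 3 called genes with the largest differences are named (some are not reported here), plus the ligand and receptor genes and, for each called member, the 2 genes nearest in pattern. Map2k2, Mapk3, Grb2, Fos, Myc, Rasa2 and Rasa3 were named outside this rule after their values were seen. Alternatives covered background correction, normalization, scaling, filter, probe choice, fit, array weights, replicate block and each replicate left out. Deviations of same-numbered arrays in 2 groups correlated at r = -0.03 to 0.04, so the numbers were not treated as pairs.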

Additional observations from a re-analysis of the deposited data

Results flagged for a closer look

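In 44 groups of 4 arrays of the members and their probes, 3 arrays stood far from the other 3 of their group by Dixon's criterion, all in CD90, and chance flags about 1 in 20 such groups. Spry1 stood at 0.14 on CD90 replicate 4, against -2.47 to -2.35 on the other CD90 arrays. Spred2 stood at -3.44 on CD90 replicate 2, the one CD90 array where it was well above background, against -8.62 to -8.35. Phlda1 stood at -8.05 on CD90 replicate 3, not well above background, against 0.64 to 2.20. The 3 values fell on 3 different arrays.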

How the results depend on the processing

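Of the member differences under an alternative, 1149 kept their direction and their side of the threshold or, where not called, stayed not called, 32 passed it newly, 11 no longer passed it and 2 reversed, both on the dimmer Spry4 probe (TRKA-TGF versus CD90 -1.73, versus p75 -3.03), which was not well above background on any TRKA-TGF array. The number of members called in CD90 versus p75 was 1, but 3 with normexp and 2 with quantile normalization, the percentile over detected probes, the authors' values or array weights. Calls over all 20571 genes there were 1492, against 1990, 1784, 1521, 1718 and 2240 in that order. In TRKA-TGF versus CD90 the number of members was 1, but 3 with array weights and 2 with quantile normalization, the percentile over detected probes or only the 2 groups. Calls over all genes there were 3069, against 4677, 3628, 3131 and 4183 in that order. Leaving out 1 array gave 3 to 5 members in TRKA-TGF versus TRKA, 5 to 6 in TRKA versus p75, 4 to 5 in TRKA versus CD90, 1 to 3 in CD90 versus p75, 1 in TRKA-TGF versus CD90 and 3 in TRKA-TGF versus p75. Calls over all genes were then 4327 to 5819, 6280 to 7671, 6288 to 7372, 1199 to 1293, 2441 to 2646 and 2532 to 2688, in that order. Over all genes, calls went from 3109 to 2029 with a filter of 12 arrays and 5011 with array weights in TRKA-TGF versus p75, from 3069 to 1950 and 4677 in TRKA-TGF versus CD90, and from 1492 to 879 and 2240 in CD90 versus p75. The replicate number as a block changed no count of members (4 in TRKA-TGF versus TRKA) and gave 5114 calls over all genes there, against 5434. In that comparison the number of members was 3 with normexp, quantile normalization or array weights. It was 5 with the percentile over detected probes. Calls over all genes were 5330, 6651, 3986 and 6258 in that order. With only the 2 groups, 4 members and 3843 genes were called. Scaling by the percentile over all spots was added after seeing the data. The cause of these shifts was not tested. Signal over background limits Spry1 and Rasa1 in TRKA, Spred2 in every group and Phlda1 in most groups. It also limits Dusp5 on 1 TRKA-TGF and 1 TRKA array. A fitted difference against a group not well above background is not a measured size.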
